A study of Homo sapiens with 18 samples.

Results

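The genes described here belong to insulin and insulin-like growth factor (IGF) signalling. They were chosen by name, with earlier results of these data known. Counts of them set beside shares of all genes are therefore descriptions only. They are the receptors INSR, IGF1R and IGF2R, the adaptors IRS1 and IRS2, and the binding proteins IGFBP3 and IGFBP5. The others are the phosphatidylinositol 3-kinase (PI3K) regulatory subunits PIK3R1 and PIK3R3. Of these 9 genes, 8 had values in the table, which held 12755 gene IDs. IRS2 had no interval in it and was not analysed here. All 8 passed the filter on low values, which kept 10191 genes. The RNA came from MDA-MB-453, an established luminal breast cancer cell line that expresses the androgen receptor. Cells received the solvent DMSO or JQ1-VHL, a molecule that joins the BET bromodomain ligand JQ1 to a ligand of the VHL ubiquitin ligase so that BET proteins are degraded. The sample titles call the drug dBET and the treatment label calls it JQ1-VHL, the name used here. Treatment lasted 3 h, and 4-thiouridine at 0.1 mM was present for the final 60 min, a step the labels state for the drug-treated cells. Total, nuclear and cytoplasmic RNA were sequenced from each treatment, the last pair separated with digitonin at 1 mg/ml, which gave 6 groups of 3 libraries. Drosophila cells had been mixed in before permeabilisation, and ERCC control RNA was added per mass of recovered RNA.

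Insulin and the IGFs bind tyrosine kinase receptors, which phosphorylate the IRS adaptors. The adaptors recruit PI3K through its regulatory subunits, and the lipid product activates AKT and mTOR. Secreted IGFBPs hold IGFs in the extracellular space, and IGF2R carries IGF2 and mannose 6-phosphate-tagged enzymes to lysosomes without signalling as a kinase. In breast epithelium this pathway is known for driving growth and survival.

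The values count sequenced reads that carry T-to-C changes, the mark of 4-thiouridine in RNA made during the labelling, divided by 1 ERCC factor per library. They are called units below and sum all the intervals of a gene. Library depth was between 1584517 and 6773386 of these reads, and 1 read was worth 0.470 to 2.75 units. Because ERCC RNA followed RNA mass, units are per mass of recovered RNA, and less RNA per cell cannot be told apart from fewer cells of a kind. The summed units of the DMSO cytoplasmic libraries ran from 1.80 to 18.7 M (mega) units, with replicate 2 lowest, and those of the JQ1-VHL nuclear libraries from 0.753 to 2.04 M, with replicate 3 lowest. A second scale, called rescaled, divided each library by the median ratio of its genes to their average over all 18 libraries. It sets each gene roughly against the typical gene of its library. The median log2 difference between JQ1-VHL and DMSO over all tested genes was -0.49 in total, -1.82 in nuclear and -0.02 in cytoplasmic RNA on the ERCC scale, and -0.19, -0.01 and 0.05 after rescaling. Of 12 luminal markers all 12 were tested, with a summed level of 10518 to 129232 units under DMSO, and in nuclear RNA of 19826 to 32096 units under DMSO and 6141 to 11014 units under JQ1-VHL. The part of that shift in the nuclear results was not tested. Of 12 markers of other cell types only 4 were in the table, and they summed to 108 to 1088 units under DMSO. Among those 4, COL1A1 averaged 483 units in DMSO total RNA.

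Promoter sequences are printed for the 3 genes with the lowest JQ1-VHL to DMSO ratios in total RNA and for IGF2R. The IGF2R ratio there was 1.04, with DMSO and JQ1-VHL libraries that overlapped. Each window holds the 250 bases before the RefSeq start in GRCh38.p14, and for PIK3R1 the start farthest upstream was taken. Capitals mark the letters CACGTG, the core of the E-box.
IRS1 chr2:226799821-226800070 (minus strand): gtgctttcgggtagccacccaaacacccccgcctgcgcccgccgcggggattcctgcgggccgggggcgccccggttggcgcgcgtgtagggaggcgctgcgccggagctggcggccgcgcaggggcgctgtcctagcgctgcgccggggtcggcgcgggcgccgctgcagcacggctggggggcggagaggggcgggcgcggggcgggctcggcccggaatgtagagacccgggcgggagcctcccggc
IGFBP3 chr7:45921273-45921522 (minus strand): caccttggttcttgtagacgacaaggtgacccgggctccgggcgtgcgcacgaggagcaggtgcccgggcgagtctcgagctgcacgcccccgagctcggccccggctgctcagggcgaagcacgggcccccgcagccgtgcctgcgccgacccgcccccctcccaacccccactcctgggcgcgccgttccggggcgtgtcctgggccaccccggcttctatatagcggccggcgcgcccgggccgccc
PIK3R1 chr5:68215506-68215755 (plus strand): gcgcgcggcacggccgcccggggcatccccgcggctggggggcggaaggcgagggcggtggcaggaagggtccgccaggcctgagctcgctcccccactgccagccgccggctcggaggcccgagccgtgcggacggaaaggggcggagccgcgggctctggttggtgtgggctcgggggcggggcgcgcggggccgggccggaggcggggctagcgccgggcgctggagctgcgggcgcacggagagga
IGF2R chr6:159968832-159969081 (plus strand): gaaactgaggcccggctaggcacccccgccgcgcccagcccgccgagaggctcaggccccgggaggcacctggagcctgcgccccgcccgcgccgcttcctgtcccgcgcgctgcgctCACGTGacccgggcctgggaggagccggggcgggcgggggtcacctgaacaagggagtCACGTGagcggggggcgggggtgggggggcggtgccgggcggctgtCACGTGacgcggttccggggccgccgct
The motifs searched on both strands of these windows were TATAAA (the TATA box), TGTTTAC (a FOXO motif) and the E-box core. The core occurred 3 times in the IGF2R window, 132, 74 and 28 bases before the start, whereas 6.34% of 35116 RefSeq promoters of this length held it at least once. TATAAA was found in 10.7% and TGTTTAC in 2.98% of those promoters, and neither was in the 4 windows shown. Other forms of the TATA box were not searched, and the IGFBP3 window holds the letters tatata. The windows of IRS1, IGFBP3, PIK3R1 and IGF2R held 39, 32, 37 and 33 CpG dinucleotides, against a median of 11 over all promoters. The IGFBP5 window held 8. No promoter signal was measured in these libraries.

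New RNA of IRS1 and IGFBP3 fell under JQ1-VHL in total and nuclear RNA, and IRS1 also fell in cytoplasmic RNA. PIK3R1 and IGFBP5 fell in nuclear RNA. IGF2R and the receptor kinase genes INSR and IGF1R passed the test on the ERCC scale in no fraction. The number of the 8 genes called lower was 2 in total RNA, where 2.79% of all tested genes were called lower, 4 in nuclear RNA, where 33.7% were, and 1 in cytoplasmic RNA, where 3.67% were. None was called higher, while 0.245%, 0.177% and 0.226% of all genes were. After rescaling, 4 of 8 were lower in total RNA (18.4% of all genes), 3 in nuclear RNA (12.6%) and 5 in cytoplasmic RNA (15.9%). IGF2R was then higher in nuclear RNA, where 18.2% of all genes were, and none of the 8 was higher in total (12.2%) or cytoplasmic RNA (14.8%). All calls below are limma tests with Benjamini-Hochberg adjustment over the 10191 genes, and log2 differences are estimates ± SE on log2(units + 1). Separate cultures are not stated for the replicates, so these p-values measure only the spread between libraries, which may be technical. On the ERCC scale that spread was pooled over the 6 groups and set mainly by a trend over all genes. The SE of PIK3R1 was thus 0.83 in every fraction, while the SD of its paired log2 differences was 0.20 in total and 2.27 in cytoplasmic RNA.

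**Figure D1:**
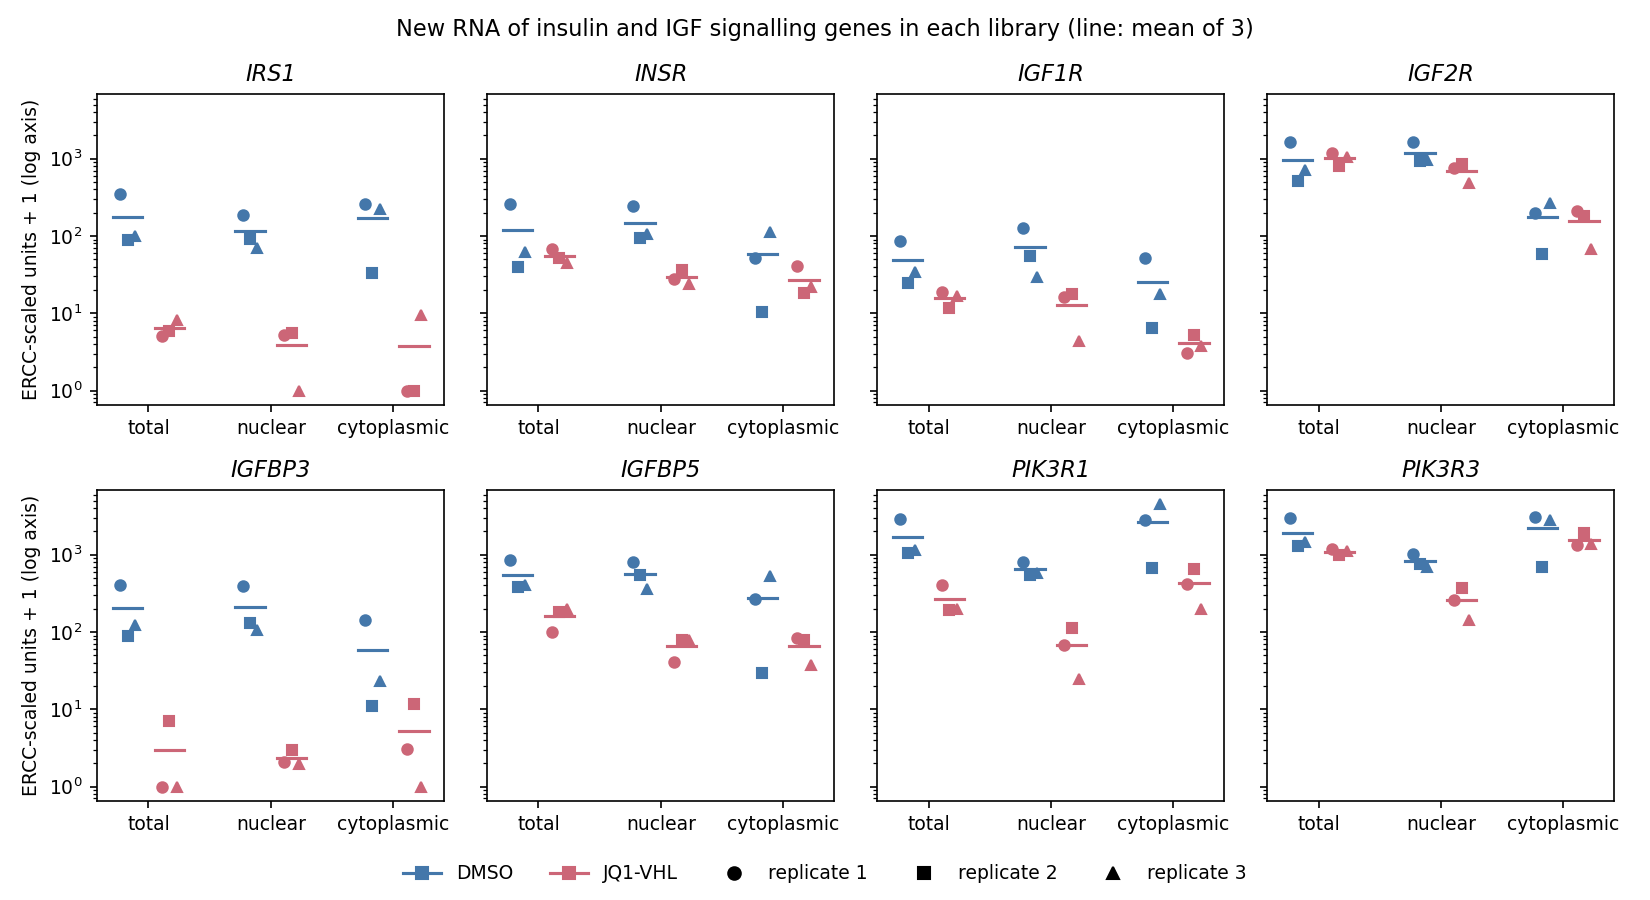
Units + 1 (log axis) of the 8 genes in every library, by fraction, with DMSO in blue, JQ1-VHL in red, 1 symbol per replicate and a line at the mean of 3. The JQ1-VHL libraries of IRS1 and IGFBP3 lie at the bottom of the axis in total and nuclear RNA, while those of IGF2R overlap DMSO in total and cytoplasmic RNA.

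IGFBP3 encodes the main carrier of circulating IGFs. The gene lies on the minus strand at chr7:45912245-45921874 (GRCh38, GENCODE 29). Its level in total RNA was 401, 88.4 and 124 units in DMSO replicates 1 to 3 and 0, 6.02 and 0 units under JQ1-VHL, from 503 and 5 reads. In nuclear RNA it was 388, 130 and 106 units under DMSO and 1.06, 1.94 and 0.950 units under JQ1-VHL, from 931 and 7 reads. Every JQ1-VHL library lay far below every DMSO library in these fractions, and DMSO replicate 1 was the highest. The log2 difference was -6.43 ± 1.11 in total RNA (adjusted p = 7.3e-05) and -6.27 ± 1.11 in nuclear RNA (adjusted p = 1.4e-05). No tested gene had a lower estimate in total RNA. Both differences passed under every one of the 14 alternatives run for each. In cytoplasmic RNA the values were 140, 9.94 and 22.0 units under DMSO and 2.09, 10.8 and 0 units under JQ1-VHL, from 111 and 6 reads, and the groups overlapped. That log2 difference was -3.31 ± 1.11 with adjusted p = 0.064, and it passed with the replicate number as a block (-3.31 ± 1.02, adjusted p = 0.026) and after rescaling (-3.30 ± 0.86, adjusted p = 0.0086). It also passed with replicate 2 of DMSO (-4.11, adjusted p = 0.012) or of JQ1-VHL (-4.23, adjusted p = 0.026) left out, and stood at -2.26 with DMSO replicate 1 left out (adjusted p = 0.57).

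IGFBP5, a binding protein that also attaches to extracellular matrix, lies on the minus strand at chr2:216672105-216695525. Its DMSO levels were 866, 382 and 404 units in total and 799, 539 and 361 units in nuclear RNA. Under JQ1-VHL it stood at 99.0, 178 and 199 units in total and 40.4, 77.5 and 78.9 units in nuclear RNA. The groups did not overlap in either fraction, and every treated library kept reads of the gene. Its nuclear log2 difference was -3.08 ± 0.87 (adjusted p = 0.0061). That call ended after rescaling (-1.22 ± 0.48, adjusted p = 0.062) and without DMSO nuclear replicate 1 (-2.79 ± 0.99, adjusted p = 0.076). In total RNA the difference was -1.74 ± 0.87 (adjusted p = 0.28) and passed only on a scale relative to the other genes, as -1.44 ± 0.48 when rescaled (adjusted p = 0.032). Cytoplasmic levels of 266, 28.7 and 532 units under DMSO overlapped the 81.7, 77.4 and 36.3 units under JQ1-VHL. The cytoplasmic log2 difference was -1.38 ± 0.87 (adjusted p = 0.60), or -1.30 ± 0.48 when rescaled (adjusted p = 0.049). On the ERCC scale it moved with single DMSO cytoplasmic libraries, to -2.60 ± 0.75 with replicate 2 left out (adjusted p = 0.013) and to -0.52 ± 0.91 with replicate 3 left out (adjusted p = 0.76).

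INSR, the insulin receptor, lies on the minus strand at chr19:7112255-7294034. In nuclear RNA it stood at 240, 93.7 and 104 units under DMSO and 26.6, 34.9 and 22.8 units under JQ1-VHL. All treated nuclear libraries were below all control ones, as was true of 71.2% of the tested genes. The log2 difference was -2.22 ± 0.99 (adjusted p = 0.063), which passed with the replicate block (-2.22 ± 0.92, adjusted p = 0.0399) and stood at -0.38 ± 0.42 after rescaling (adjusted p = 0.51). In total RNA the values were 258, 38.9 and 61.6 units under DMSO and 67.3, 50.5 and 43.2 units under JQ1-VHL, with 1 DMSO library above and 1 below all treated ones. Cytoplasmic values of 51.2, 9.39 and 110 units overlapped the 39.8, 17.2 and 20.9 units under JQ1-VHL, with 2 DMSO libraries above and 1 below all treated ones. The log2 differences were -0.68 ± 0.99 in total (adjusted p = 0.89) and -0.63 ± 0.99 in cytoplasmic RNA (adjusted p = 0.90).

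IGF1R, the kinase receptor for IGF1 and IGF2, spans chr15:98648539-98964530 on the plus strand and rested on few reads, 124 in DMSO total RNA. Its total values were 84.6, 23.8 and 33.5 units under DMSO and 17.9, 10.8 and 15.6 units under JQ1-VHL. Its nuclear values were 128, 53.9 and 28.7 units against 15.4, 16.8 and 3.33 units. In cytoplasmic RNA 51.2, 5.52 and 16.5 units (47 reads) stood against 2.09, 4.30 and 2.79 units (5 reads). The treated libraries lay below the control ones in all 3 fractions, by a narrow margin in the cytoplasm. The log2 differences were -1.43 ± 1.10 in total (adjusted p = 0.61), -2.46 ± 1.10 in nuclear (adjusted p = 0.065) and -2.19 ± 1.10 in cytoplasmic RNA (adjusted p = 0.36). With the replicate block the nuclear difference passed (-2.46 ± 1.01, adjusted p = 0.0395), and after rescaling only the cytoplasmic one did (-2.06 ± 0.56, adjusted p = 0.010).

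IGF2R, on the plus strand at chr6:159969099-160113507, passed the test in no fraction on the ERCC scale. In total RNA it held 1670, 518 and 722 units under DMSO and 1175, 795 and 1057 units under JQ1-VHL. In cytoplasmic RNA it held 196, 56.9 and 264 units against 209, 183 and 67.0 units. The groups overlapped in both fractions, and the log2 differences were 0.22 ± 0.83 (adjusted p = 0.97) and -0.07 ± 0.83 (adjusted p = 0.99). In nuclear RNA 1625, 936 and 975 units under DMSO stood against 754, 855 and 478 units under JQ1-VHL, every treated library below every control. That log2 difference was -0.75 ± 0.83 (adjusted p = 0.42), beside a median of -1.82 over all genes. After rescaling it turned to 1.12 ± 0.28 (adjusted p = 0.0069), and the rescaled levels were 697, 816 and 932 under DMSO and 1551, 1276 and 2734 under JQ1-VHL. The direction of the nuclear difference therefore depended on the scale. IGF2R shares its span with the antisense RNA AIRN, and the strand counted is not given in the sources used here, so reads of the pair cannot be told apart.

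**Figure D2:**
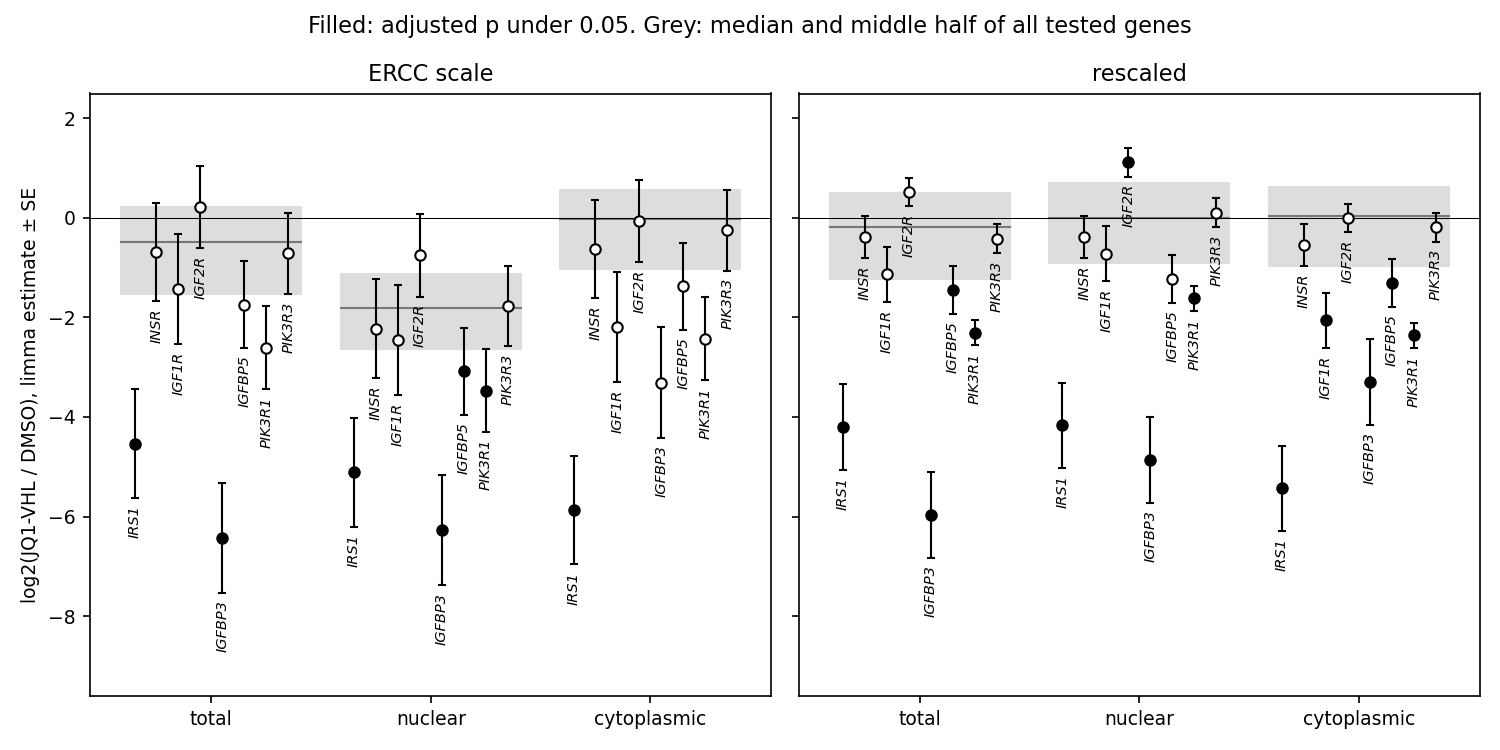
Log2 difference between JQ1-VHL and DMSO (limma estimate ± SE) of the 8 genes in each fraction, on the ERCC scale at left and rescaled at right, with filled points at an adjusted p under 0.05 and grey for the median and interquartile range of all tested genes. IRS1 lies between -5.87 and -4.16 in all 6 columns, whereas nuclear IGF2R moves from -0.75 to 1.12 between the scales.

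IRS1 encodes the adaptor that links activated INSR and IGF1R to PI3K. The gene lies on the minus strand at chr2:226731317-226799759. In total RNA it held 344, 87.7 and 98.1 units under DMSO and 4.12, 4.81 and 7.20 units under JQ1-VHL, from 440 and 13 reads. In nuclear RNA it held 186, 91.5 and 68.7 units against 4.26, 4.52 and 0 units, from 536 and 15 reads. In cytoplasmic RNA it held 256, 32.0 and 220 units against 0, 0 and 8.38 units, from 293 and 6 reads. No treated library reached any control library of its fraction. The DMSO to JQ1-VHL ratio of the means was 32.9 in total, 39.4 in nuclear and 60.7 in cytoplasmic RNA. The log2 differences were -4.53 ± 1.09 (adjusted p = 0.0091), -5.11 ± 1.09 (adjusted p = 0.00037) and -5.87 ± 1.09 (adjusted p = 0.00020). The cytoplasmic estimate was the lowest of all tested genes. Rescaling gave -4.20, -4.16 and -5.43 and kept the 3 calls. After rescaling the DMSO total libraries were close together at 103, 107 and 99.7. The total call was lost when DMSO total replicate 1 was left out (-3.91 ± 1.18, adjusted p = 0.14), when JQ1-VHL total replicate 3 was left out (-4.73 ± 1.24, adjusted p = 0.061) and with a pseudocount of 0.1 (-4.75, adjusted p = 0.092). The cytoplasmic call ended when only the groups compared were fitted (adjusted p = 0.093), and the nuclear call passed in all 14 alternatives.

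PIK3R1, the gene of the p85-alpha regulatory subunit of PI3K and of shorter isoforms from internal starts, spans chr5:68215720-68301821 on the plus strand. Its nuclear levels were 804, 552 and 575 units under DMSO and 66.0, 113 and 23.8 units under JQ1-VHL. Its total levels were 2886, 1041 and 1167 units against 405, 193 and 197 units, and its cytoplasmic levels were 2784, 664 and 4583 units against 421, 654 and 197 units. The groups did not overlap in any fraction, although DMSO and JQ1-VHL cytoplasmic replicate 2 nearly met. The nuclear log2 difference was -3.47 ± 0.83 (adjusted p = 0.0015), and without JQ1-VHL nuclear replicate 3, the library with the fewest reads, it was -2.86 ± 0.90 (adjusted p = 0.053). In total RNA it was -2.61 ± 0.83 (adjusted p = 0.052), or with the replicate block -2.61 ± 0.80 (adjusted p = 0.029). In cytoplasmic RNA it was -2.43 ± 0.83 (adjusted p = 0.071), or with the block -2.43 ± 0.80 (adjusted p = 0.042), and with single DMSO cytoplasmic libraries left out it ran from -3.23 ± 0.70 for replicate 2 (adjusted p = 0.0011) to -1.84 ± 0.84 for replicate 3 (adjusted p = 0.33). After rescaling all 3 passed, at -2.31 ± 0.25, -1.62 ± 0.25 and -2.36 ± 0.25 in total, nuclear and cytoplasmic RNA, with adjusted p = 1.7e-05, 0.00016 and 1.1e-05.

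PIK3R3 encodes the p55-gamma regulatory subunit and lies on the minus strand at chr1:46040140-46133036, where it overlaps the protein-coding annotation AL358075.4. Its total levels were 3017, 1305 and 1475 units under DMSO and 1172, 1000 and 1123 units under JQ1-VHL. Its nuclear levels were 1029, 754 and 685 units against 257, 368 and 141 units. Its cytoplasmic levels were 3101, 689 and 2793 units against 1338, 1929 and 1380 units. Treated libraries lay below control ones in total and nuclear RNA and overlapped them in the cytoplasm. The log2 differences were -0.71 ± 0.81 (adjusted p = 0.83), -1.77 ± 0.81 (adjusted p = 0.071) and -0.25 ± 0.81 (adjusted p = 0.94), and the nuclear one was 0.10 ± 0.29 after rescaling (adjusted p = 0.82). A difference between PIK3R1 and PIK3R3 was not tested.

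Counting libraries alone, all 3 treated ones lay below all 3 control ones for 6 of the 8 genes in total RNA (24.8% of tested genes), for all 8 in nuclear RNA (71.2%) and for 3 in cytoplasmic RNA (5.98%). The 6 in total RNA were IRS1, IGF1R, IGFBP3, IGFBP5, PIK3R1 and PIK3R3, and the 3 in cytoplasmic RNA were IRS1, IGF1R and PIK3R1. For a single gene an exact permutation test of 3 libraries against 3, two-sided, cannot give a p under 0.1. Groups that do not overlap always give that smallest value, so the test adds nothing to these counts.

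The deposited table divides each gene into numbered intervals, so the 8 genes could be followed along their length. The order was judged on genes with at least 10 intervals whose highest interval number equalled their count of gaps between exon blocks. In these genes DMSO nuclear reads rose with gap length if the numbers were taken to follow genome coordinates. The Spearman correlation across intervals then had a median of 0.340 in 762 plus-strand genes and 0.327 in 583 minus-strand genes. Numbered the opposite way, the medians were 0.0299 and 0.0647. Intervals of every gene were therefore read in genome order, which was chosen after the values were seen. The highest interval number equalled the gap count for IRS1, IGFBP5 and PIK3R1. It differed for INSR (23 against 22 gaps), IGF1R (28 against 29), IGF2R (50 against 48), IGFBP3 (5 against 6) and PIK3R3 (14 against 10). For the genes where it differed, the order was carried over and not checked. Neighbouring intervals can hold the same fragments: PIK3R1 intervals 7 and 8 had equal means in all 6 groups. In nuclear RNA the 3 treated libraries lay below the 3 controls in 2 of 2 IRS1, 5 of 5 IGFBP3, 3 of 3 IGFBP5, 14 of 17 PIK3R1 and 12 of 13 PIK3R3 intervals, where 55.6% of all 98665 intervals did. The count was 7 of 12 for INSR, 6 of 9 for IGF1R and 22 of 40 for IGF2R. In total RNA, where 22.7% of all intervals did, it was 2 of 2 for IRS1, 5 of 5 for IGFBP3, 3 of 3 for IGFBP5, 14 of 17 for PIK3R1, 8 of 13 for PIK3R3, 3 of 9 for IGF1R, 13 of 40 for IGF2R and 0 of 12 for INSR. In cytoplasmic RNA, where 6.01% did, both IRS1 intervals, 2 of 5 in IGFBP3, 9 of 17 in PIK3R1, 4 of 13 in PIK3R3, 2 of 9 in IGF1R and 1 of 12 in INSR lay below, and none in IGFBP5 or IGF2R.

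In PIK3R1 and PIK3R3 the ratio of JQ1-VHL to DMSO was higher over the summed intervals on the annotated start side than on the far side. These sums held 8 intervals a side in PIK3R1 and 6 in PIK3R3. In total RNA the highest ratios did not lie nearest the start. PIK3R1 intervals 3 to 6 had ratios of 0.415, 0.0669, 0.219 and 0.190, against 0.585 and 0.537 for intervals 9 and 10. PIK3R3 interval 14, nearest the start in this order, had 0.0963, against 0.890 for interval 10. Start and end below stand for the summed intervals of each side, equal in number. PIK3R3 had cytoplasmic ratios of 0.854 at the start and 0.171 at the end. In single libraries the start of PIK3R3 gave 2437, 472 and 2151 units under DMSO and 1259, 1774 and 1289 units under JQ1-VHL. Its end gave 528, 178 and 498.5 units under DMSO and 46.1, 120 and 39.1 units under JQ1-VHL. The groups overlapped at the start and did not overlap at the end. In nuclear RNA the PIK3R3 ratios were 0.378 and 0.189, and in total RNA 0.754 and 0.122. PIK3R1 gave 0.501 and 0.111 in cytoplasmic, 0.305 and 0.0690 in nuclear and 0.433 and 0.113 in total RNA. IGF1R gave nuclear ratios in the same order, 0.290 and 0.106, from 109 and 134 DMSO reads, and nearly equal ones in total RNA, 0.268 and 0.265. Over the genes with at least 4 intervals and 30 DMSO reads at each end, the ratio was higher at the start in 54.3% of 5498 genes in cytoplasmic, 57.6% of 7814 in nuclear and 58.5% of 7342 in total RNA. INSR went the other way, with nuclear ratios of 0.133 at the start and 0.270 at the end. The summed ends of IGF2R differed less, with nuclear ratios of 0.658 and 0.516. Its single intervals varied widely, with nuclear ratios from 0.0244 to 1.03. For example, interval 34 had a ratio of 0.744 and interval 45, nearer the far end, 0.0808. The division into 2 ends was chosen after values were seen, so these ratios are descriptions with no test. Single fragments may count in several intervals. For PIK3R3, IGF1R, INSR and IGF2R, which end is the start rests on the unchecked order. RefSeq promoter windows of PIK3R1 also lay inside the gene, such as chr5:68288269-68288518. A window of PIK3R3 lay beyond its annotated start, at chr1:46174902-46175151. Isoforms with other starts, and the annotation that overlaps PIK3R3, were not told apart in these ratios.

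**Figure D3:**
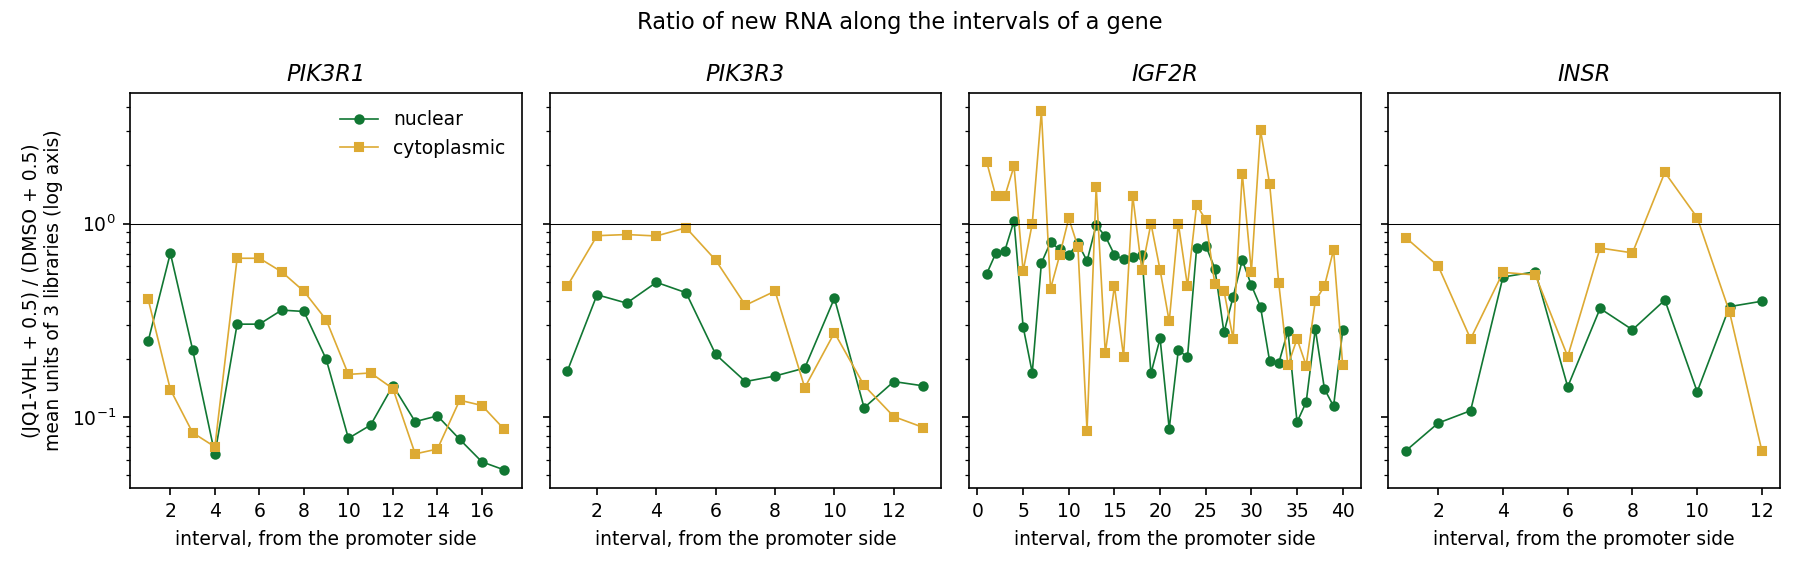
Ratio of mean units under JQ1-VHL to mean units under DMSO (0.5 added to both, log axis) in each interval of PIK3R1, PIK3R3, IGF2R and INSR, ordered from the promoter side, for nuclear RNA in green and cytoplasmic RNA in yellow. The order was not checked for PIK3R3, IGF2R and INSR. The cytoplasmic ratio of PIK3R3 is 0.854 over the summed intervals on the start side and 0.171 on the far side. The nuclear ratio of INSR is lower on the start side, 0.133 against 0.270.

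Within IGFBP5 the 3 intervals also differed. The interval nearest the start had a nuclear mean of 256 units under DMSO and 6.63 under JQ1-VHL, a ratio of 0.0259, while the other pair had ratios of 0.189 and 0.190. In cytoplasmic RNA, with 23 to 48 treated reads in each interval, the start interval held 12.6, 34.4 and 1.40 units under JQ1-VHL and 41.3, 5.52 and 93.6 units under DMSO, so that its ratio of 0.344 rested largely on JQ1-VHL replicate 2. For IRS1 the 2 nuclear intervals had ratios of 0.0251 and 0.0257, from 8 and 7 treated reads. In total RNA the same intervals had 0.0245 and 0.0435, from 7 and 6 treated reads. These reads were too few to compare the IRS1 intervals.

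Nuclear and cytoplasmic RNA can also be set against each other. Under DMSO, IGF2R was higher in nuclear than in cytoplasmic RNA on the ERCC scale, by 2.98 ± 0.83 on the log2 scale (adjusted p = 0.0049), where 14.7% of all genes were higher and 5.92% lower. With only the DMSO nuclear and cytoplasmic groups fitted, its adjusted p was 0.091. The other 7 genes did not pass. Single DMSO cytoplasmic libraries changed this: with replicate 1 left out IGFBP3 passed (3.47), with replicate 2 left out PIK3R1 (-2.49) and PIK3R3 (-1.86) did, and with replicate 3 left out IGFBP5 (2.60) did. The 2 PI3K subunit genes had negative estimates, -1.68 ± 0.83 for PIK3R1 (adjusted p = 0.13) and -1.16 ± 0.81 for PIK3R3 (adjusted p = 0.31). After rescaling IGF2R, INSR (1.62), IGF1R (1.54), IGFBP3 (2.24) and IGFBP5 (1.58) were higher in the nucleus (33% of all genes) and PIK3R1 (-1.85) and PIK3R3 (-1.33) were lower (23.8%). IRS1 passed on neither scale (-0.21 ± 1.09, adjusted p = 0.91). These values are per mass of each fraction's RNA and do not give the share of a gene's molecules in each compartment.

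Whether JQ1-VHL acted differently on the nuclear and cytoplasmic RNA of a gene was tested as the difference of both effects. No tested gene passed on the ERCC scale with limma fitted without the replicate block (0% called in either direction). In that fit 1564 genes had an unadjusted p under 0.05. EdgeR on the same scale also called 0. With the replicate block limma called 8 genes lower (0.0785%) and 0 higher, none of them among the 8 described here. IRS1 gave 0.76 ± 1.54 (adjusted p = 0.74), IGFBP3 -2.96 ± 1.57 (adjusted p = 0.33) and IGF2R -0.69 ± 1.17 (adjusted p = 0.69). The rescaled fit called 1.38% of all genes lower and 1.44% higher, and none of the 8. The SEs of the 8 genes on the ERCC scale were 1.15 to 1.57.

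Of 77 further pathway genes listed by role, 67 were in the table and 54 passed the filter. The ligand genes INS and IGF2 had no interval and IGF1 was below the filter, so no ligand was tested. In nuclear RNA 16 of the 54 fell and none rose on the ERCC scale, where 33.7% of all genes fell, and the list's median of -1.70 lay beside -1.82 for all genes. In cytoplasmic RNA 3 fell (3.67% of all genes) and in total RNA none passed (2.79% of all genes were lower), and medians of 0.07 and -0.53 lay beside -0.02 and -0.49. The replicate block raised the counts of lower genes to 22 in nuclear (41.6% of all genes), 5 in cytoplasmic (5.68%) and 4 in total RNA (5.39%). The nuclear count rested on single libraries, and the median of all genes moved with them as well. Shares of all genes with 1 library left out were not computed. Of the DMSO nuclear libraries, leaving out replicate 1 gave 2 and replicate 2 gave 8, beside all-gene medians of -1.44 and -1.97. Of the JQ1-VHL ones replicate 2 gave 24 and replicate 3 gave 3, beside medians of -2.20 and -1.25. The cytoplasmic count became 0, 8 and 0 when DMSO replicates 1, 2 and 3 were left out in turn. All-gene medians were then 0.27, -0.93 and 0.55. The count was 1 when JQ1-VHL replicate 2 or 3 was left out, beside medians of -0.22 and 0.31. It was also 0 with only the compared groups fitted (0% of all genes) and with edgeR on the ERCC scale (2.21%). With a pseudocount of 0.1 it was 5 (4.38%), and without the filter 4 of 67 (3.4%).

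Among the binding proteins and their proteases STC2, which inhibits the IGFBP protease PAPP-A, fell in nuclear RNA from 262 ± 83.2 to 13.9 ± 3.67 units (SD, n = 3), a log2 difference of -4.12 ± 0.98 (adjusted p = 0.0015). It was the only one of 4 tested in that role to pass. Beside this count and those of the next roles stand the 33.7% of all genes that were lower in nuclear RNA. Among 10 adaptors, GAB1, a docking protein for PI3K and SHP2, fell from 93.8 ± 42.7 to 7.73 ± 5.29 nuclear units (log2 -3.61 ± 1.04, adjusted p = 0.0069), and SOS2, a RAS exchange factor, gave -2.25 ± 0.88 (adjusted p = 0.038). PIK3CA, the p110-alpha catalytic subunit that binds the PIK3R1 and PIK3R3 products, fell from 189 ± 113 to 23.8 ± 17.3 nuclear units (log2 -3.09 ± 0.91, adjusted p = 0.0081), alone among the 6 PI3K genes tested beside PIK3R1 and PIK3R3.

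Beside 33.7% of all genes, 7 of 19 AKT and mTOR kinases and targets fell in nuclear RNA, from -4.26 ± 1.06 for AKT1S1, an inhibitory component of mTOR complex 1 (adjusted p = 0.0023), to -2.27 ± 0.90 for MAPKAP1, a component of mTOR complex 2 (adjusted p = 0.040). Of 13 phosphatases and inhibitors 4 fell, from -3.14 ± 0.84 for DDIT4, which restrains mTOR complex 1 (adjusted p = 0.0042), to -2.43 ± 0.91 for PTPN1, a phosphatase of INSR (adjusted p = 0.030). FOXO6 fell by 3.19 ± 1.13 on the log2 scale (adjusted p = 0.022) and the other FOXO gene tested did not pass. The 3 genes that fell in cytoplasmic RNA were EIF4EBP1, a translation repressor controlled by mTOR (-3.42 ± 1.03, adjusted p = 0.033), PTPN1 (-2.89 ± 0.91, adjusted p = 0.044) and DDIT4 (-2.72 ± 0.84, adjusted p = 0.038).

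**Figure D4:**
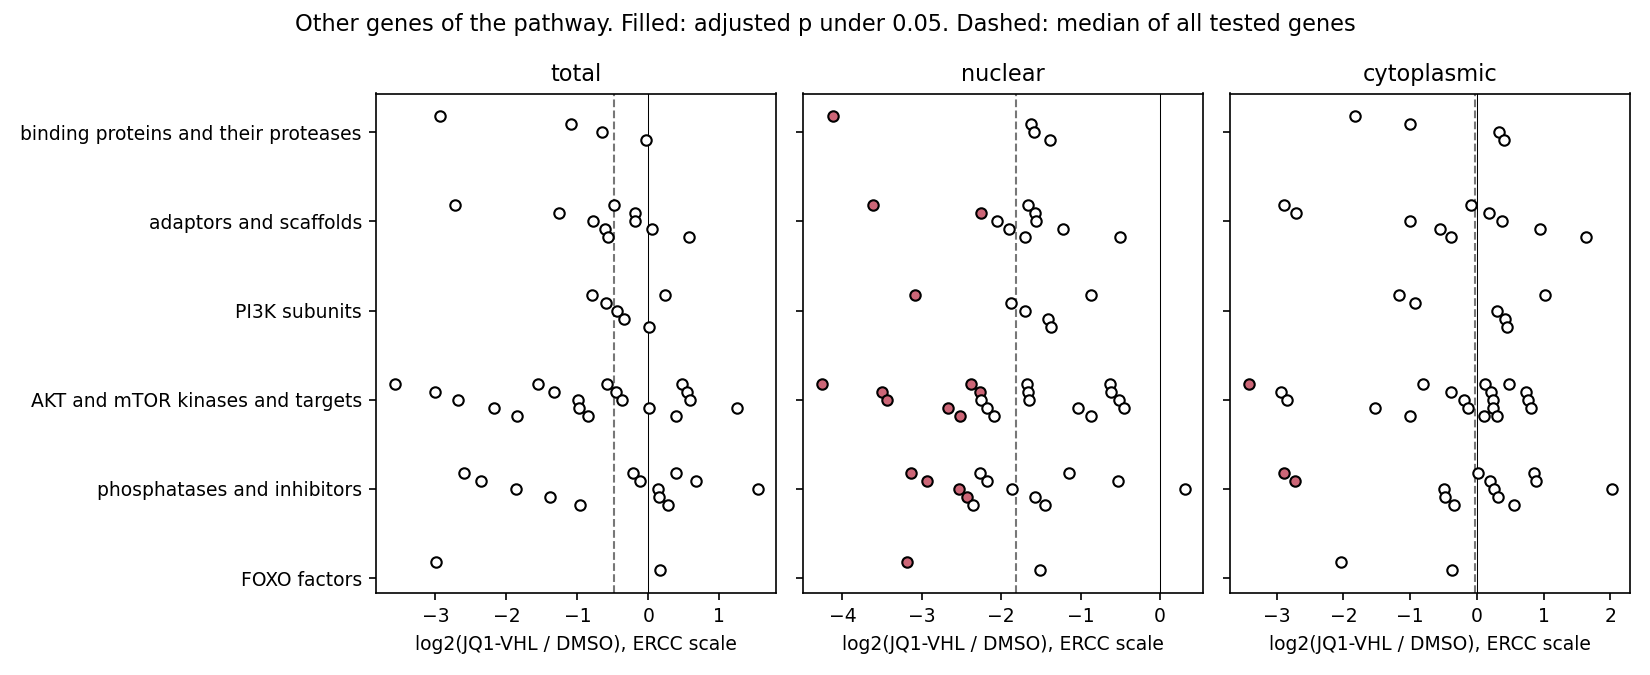
Log2 difference between JQ1-VHL and DMSO on the ERCC scale (x axis) of the 54 further pathway genes, by role, in each fraction, with filled points at an adjusted p under 0.05 and a dashed line at the median of all tested genes. In nuclear RNA 16 genes are filled, all left of the line at -1.82, and in total RNA none is.

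After rescaling, 6 of the 54 were lower and 9 higher in nuclear RNA, beside 12.6% and 18.2% of all genes. In cytoplasmic RNA 8 were lower and 7 higher, beside 15.9% and 14.8%, and in total RNA 9 and 6, beside 18.4% and 12.2%. The shares of the list were thus near those of all genes. PIK3IP1, a membrane inhibitor of PI3K, was higher in all 3 fractions, at 1.83 ± 0.39 in total, 2.17 ± 0.39 in nuclear and 2.08 ± 0.39 in cytoplasmic RNA (adjusted p = 0.0031, 0.00055 and 0.0011). On the ERCC scale it did not pass in any, with mean levels of 83.9 ± 43.6 units in DMSO total and 228 ± 40.7 units in JQ1-VHL total RNA (SD, n = 3). GRB2, the adaptor to RAS signalling, was also higher when rescaled, by 1.36 ± 0.20 in nuclear RNA (adjusted p = 0.00011). On the ERCC scale its nuclear mean was 2580 ± 806 units under DMSO and 1861 ± 713 units under JQ1-VHL, so its direction depended on the scale. GAB1, STC2, AKT1S1 and PIK3CA were lower in nuclear RNA on both scales. Between nuclear and cytoplasmic RNA under DMSO 4 of the 54 were higher (14.7% of all genes) and 3 lower (5.92%). None of the 54 passed with DMSO nuclear replicate 2 left out. With only those groups fitted none passed either, beside 5.72% of all genes higher and 0.677% lower. With all 6 groups fitted, the outermost were SH2B2, an adaptor of receptor kinases, and TBC1D1, an AKT target in glucose transport. SH2B2 was 3.70 ± 1.14 higher in nuclear RNA (adjusted p = 0.012) and TBC1D1 stood at -3.50 ± 1.14 (adjusted p = 0.017).

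The 8 genes did not follow a single pattern over the 18 libraries. Pearson correlations of rescaled log2 values, given as a description over libraries that share treatment, fraction and depth, were 0.75 for IRS1 with IGFBP3, 0.74 for IRS1 with PIK3R1 and 0.77 for INSR with IGF2R. They were -0.12 for IRS1 with IGF2R and -0.53 for PIK3R1 with IGF2R. The genes most like IRS1 in this measure were ZNF24 (0.942), BMP4 (0.939) and KAT6B (0.934), and those most like IGFBP3 were ZNF155 (0.962), TFAP2B (0.953) and WDR48 (0.939). PIK3R1 was most like CWC22 (0.961), PLK2 (0.956) and PAIP1 (0.950), and PIK3R3 was most like CDC5L (0.916), ZRANB1 (0.911) and SHOC2 (0.911). IGFBP5 was most like an unnamed gene (0.906) and STC2 (0.906), the IGFBP protease inhibitor above, then ST3GAL6 (0.904). INSR was most like ZFP14 (0.939), CROCCP2 (0.931) and ADCY6 (0.930). IGF1R was most like TBC1D22B (0.965), L3HYPDH (0.942) and VHL (0.941), and IGF2R like STT3A (0.979), SMPD4BP (0.977) and MARCHF6 (0.976).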

How the data were processed

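The deposited table of the authors holds signal: T-to-C read counts per interval divided by 1 ERCC factor per library, per the name of the deposited file. All values (100%) were whole multiples of 1 read within 0.01, so whole reads were recovered. Per the submitters' processing notes, bcl2fastq, Trimmomatic 0.39, HISAT2, HTSeq and DESeq2 were used, with the builds GRCh37/hg19 and dm3. How T-to-C reads were called and counted, the strand and any filter are not given in the sources used here. Coordinates come from GENCODE 29 on GRCh38 by gene ID, not from the files' build. Of 12755 gene IDs, 12512 matched a symbol.

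Intervals were summed per gene. Genes with a mean of at least 10 units over the 18 libraries were tested (10191 genes, 99.8% of the summed units) with limma 3.58.1 (R 4.3.3), trend and robust, on log2(units + 1), with 1 mean per group, two-sided, Benjamini-Hochberg threshold 0.05. On the ERCC scale the prior degrees of freedom were infinite, so gene variances were treated as known. The rescaled fit had 6.74 prior degrees of freedom. Rescaling used the median of ratios over 7799 genes above 0 in every library. Alternatives were rescaling, a pseudocount of 0.1, no filter, the replicate block, the compared groups alone, each library left out, and on recovered reads edgeR 4.0.16 and DESeq2 1.42.0. The scripts were tested on simulated data. No molecular identifiers are mentioned, so reads may repeat molecules and read numbers do not give numbers of molecules. Replicates differed by more than counting noise (chi-square per degree of freedom 3.74 to 71.9).

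The batch stated in the labels is the same as the replicate, which pairs the libraries. Within a pair, the deviations of genes from their group means correlated at 0.23, 0.08 and 0.16 in total, 0.27, -0.14 and 0.26 in nuclear, and 0.08, -0.02 and 0.06 in cytoplasmic RNA.

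The genes and the pathway list were chosen with earlier results of these data known. By a written rule the text names all 9 genes, the called pathway genes with the lowest and highest log2 difference of each role and comparison, and the 3 genes most like each of the 8. It gives a selection of these.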

Additional observations from a re-analysis of the deposited data

How the results depend on the processing

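Calls rested on few reads for IRS1 and IGFBP3 under JQ1-VHL, on 3 libraries a group, and on the scale. IGFBP3 in total and nuclear RNA and IRS1 in nuclear RNA passed in all 14 alternatives run for each. The cause of the shifts below was not tested.

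Of the 8 genes, 2 were lower in total RNA. The count was 4 when rescaled (18.4% of all genes), 1 with a pseudocount of 0.1 (0.559%) and 4 with DESeq2 (25.7%). It was 1 to 2 with 1 library left out, and edgeR with TMM called 1 higher (21.3%). Shares of all genes with 1 library left out were not computed. In nuclear RNA 4 were lower, 7 with only the compared groups fitted, where 52.3% of all genes were lower, and 3 to 4 with 1 library left out. Rescaling, edgeR with TMM and DESeq2 each called 1 higher there. In cytoplasmic RNA 1 was lower, 5 when rescaled, with edgeR with TMM (14.3% of all genes) and with DESeq2 (18.3%), 3 with edgeR on the ERCC scale (2.21%), 0 with only the compared groups (0%) and 1 to 4 with 1 library left out. With the replicate block the counts of lower genes were 3 in total (5.39% of all genes), 6 in nuclear (41.6%) and 3 in cytoplasmic RNA (5.68%). The block changed no call of the 8 genes beside those given with the genes. Between nuclear and cytoplasmic RNA under DMSO, 1 was higher and 0 lower, against 5 and 2 when rescaled, with edgeR with TMM and with DESeq2. Those 3 fits called 33%, 36.6% and 36.3% of all genes higher and 23.8%, 23.1% and 26.4% lower. With only the compared groups 0 were higher (5.72% of all genes), and with 1 library left out 0 to 2 were lower and 1 to 2 higher.

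Estimates changed sign as follows. In total RNA with 1 library left out INSR ran from -1.24 to 0.11 and IGF2R was -0.14 without DMSO replicate 2. In nuclear RNA PIK3R3 was 0.10 when rescaled and 0.10 with DESeq2, and IGF2R was 1.12 when rescaled, 0.98 with edgeR with TMM and 1.18 with DESeq2. In cytoplasmic RNA IGF2R was 0.052 with edgeR with TMM, 0.0046 with DESeq2, 0.16 and 0.37 without DMSO replicates 1 and 3, and 0.44 without JQ1-VHL replicate 3, with -0.73 as its lowest value with 1 library left out. PIK3R3 was 0.14 and 0.06 without DMSO cytoplasmic replicates 1 and 3, and INSR 0.12 without replicate 3, their lowest values with 1 library left out being -0.95 and -1.59. For the nuclear minus the cytoplasmic effect, rescaling gave 0.081 for IGFBP5, 0.28 for PIK3R3, 1.34 for IGF1R, 0.74 for PIK3R1, 0.15 for INSR and 1.12 for IGF2R. EdgeR with TMM gave 0.27 for IGFBP5, 0.094 for PIK3R3, 1.69 for IGF1R, 0.48 for PIK3R1 and 0.93 for IGF2R. DESeq2 gave 0.53 for IGFBP5, 0.30 for PIK3R3, 1.93 for IGF1R, 0.70 for PIK3R1, 0.16 for INSR and 1.18 for IGF2R. IGF1R was 0.39 with edgeR on the ERCC scale, and 0.29, 0.40 and 0.47 without DMSO nuclear replicate 1, JQ1-VHL nuclear replicate 3 and DMSO cytoplasmic replicate 2, and at lowest -1.03 with 1 library left out. Between nuclear and cytoplasmic RNA under DMSO, IRS1 was 0.09 without DMSO nuclear replicate 3, and 0.32 and 0.21 without DMSO cytoplasmic replicates 1 and 3, and at lowest -1.16. None of these passed the test except nuclear IGF2R.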
